A study of Marchantia polymorpha with 12 samples.

Results

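The transcripts of Mphy5 mutant gemmalings were set against those of wild type Tak-1 gemmalings after 3 h of UV-B, in the liverwort Marchantia polymorpha. The comparison takes 6 of the study's 12 libraries, which are the 3 Mphy5 and the 3 wild type libraries with UV-B, chosen by their labels alone, and all genes that could be tested. Gemmalings are young plants grown from gemmae, the asexual propagules of the liverwort. All plants were male, were grown for 7 days in white light of 50 µmol per square metre per second, and in both groups received UV-B of 1.5 µmol per square metre per second on top of it for the last 3 h. The mutant is labelled Mphy5-1, which is 1 line, so effects of the lesion and of any other difference between the lines cannot be told apart. The other 6 libraries, from both lines without UV-B, were used as a second comparison of the lines and for the shared estimate of the spread. Nothing in the labels says whether replicates were grown as separate cultures. The p-values therefore cover the spread among these libraries alone, and that spread may be technical.

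HY5 is a bZIP transcription factor that, in flowering plants, switches on genes for light-driven growth and for ultraviolet-absorbing flavonoids. In Arabidopsis the photoreceptor UVR8 senses UV-B and binds the ubiquitin ligase COP1, which in darkness marks HY5 for destruction, while RUP proteins switch UVR8 off again. DET1 and DDB1 belong to a second repressor complex of light signalling, and B-box proteins act beside HY5 as partners or antagonists. In Marchantia the same photoreceptor, ligase and RUP protein are present, and flavonoids are made from phenylalanine by way of phenylalanine ammonia-lyase (PAL), cinnamate 4-hydroxylase (C4H) and chalcone synthase (CHS).

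The 6 libraries held 44787979 to 67532310 recovered reads in Mphy5 and 48069880 to 53240381 in wild type. Transcripts of the female U chromosome came to 79 to 171 reads in every library of the study, and those of the male V chromosome were present in all, as labelled. Values below are normalized reads per gene, that is reads divided by 1 size factor per library, so they compare a gene between libraries and not genes with each other. A gene is said to be called where limma gave an adjusted p under 0.05. Differences are Mphy5 minus wild type on the scale of log2(value + 1), where 1 means 2-fold. In whole gemmalings, fewer cells of a type and less RNA per cell cannot be told apart.

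After UV-B, 4766 of the 15999 genes tested (29.8%) were called, 2209 of them higher (13.8%) and 2557 lower (16%) in Mphy5. Most of these differences were small. At least 2-fold differences were called for 511 higher genes (3.19%) and 446 lower genes (2.79%), and the median difference over all genes tested was -0.01. The replicates of the lines did not overlap for 6466 genes (40.4%). Among the 8 autosomes the share of genes called ran between 25.7% on chromosome 6 and 34.8% on chromosome 3.

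Many of these differences were also present without UV-B, in a comparison whose group means share no library with the first. That comparison called 3986 genes (24.9%), with no overlap between the replicates of the lines for 6239 genes (39%). Both comparisons used a shared estimate of the spread per gene from all 12 libraries, so their calls are not independent. Of the 2209 genes higher in Mphy5 after UV-B, 1054 were also called higher without it, which is 47.7% of the first set and 59.8% of the 1764 genes called higher without UV-B. Of the 2557 lower genes, 1433 were also called lower, which is 56.0% of that set and 64.5% of the 2222 genes called lower without UV-B. Strong differences overlapped as follows. Of the 511 genes at least 2-fold higher, 340 (66.5%) were also called higher without UV-B, and of the 446 at least 2-fold lower, 308 (69.1%) were also called lower. The median difference of the 511 genes was 1.89 after UV-B and 1.48 without it, and that of the 446 genes was -1.76 after UV-B and -1.29 without it. Both sets were chosen by their difference after UV-B, which by itself favours a larger median there. The medians therefore do not show that UV-B widened the differences. Opposite calls were rare, with 45 genes higher after and lower without UV-B and 50 the other way. A gene not called without UV-B may still differ there. The same sign without UV-B was held by 1950 of the higher genes (88.3%) and 2241 of the lower genes (87.6%), against 70.5% of all genes. A limma test of the change in the difference, given below, called 222 of the higher genes more positive (10.05%, against 1.93% of all genes). It called 311 of the lower genes more negative (12.2%, against 2.54% of all genes). The genes described next include some called in both comparisons and some called after UV-B alone.

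**Figure D1:**
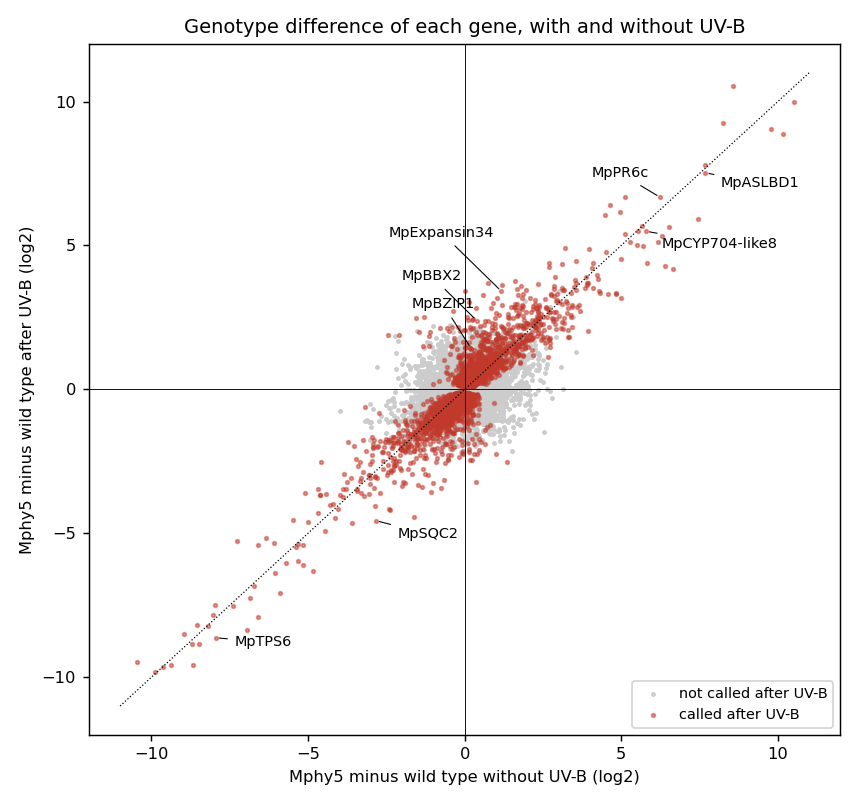
Difference between Mphy5 and wild type after UV-B (vertical axis, log2) against that without UV-B (horizontal axis, log2) for the 15999 genes tested, with the 4766 genes called after UV-B in red and the dotted line marking equal differences. The largest differences lie along the dotted line, while MpBZIP1, MpBBX2 and MpExpansin34 lie above it.

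The targeted gene came first. The gene table used here lists no HY5. Published nomenclature for Marchantia gives MpHY5 as the bZIP gene MpBZIP1 (Mp1g16800), an identity taken over here without a test. MpBZIP1 stood at 16018, 16815 and 15534 normalized reads in the 3 Mphy5 libraries and at 5999, 6354 and 5745 in wild type. Every mutant library was thus far above every wild type library, by 2.67-fold (log2 difference 1.42, SE 0.05, adjusted p = 5.9e-14). Sources used here do not give the kind of lesion. A transcript can persist in a mutant that lacks the protein, so this level does not check the label. Without UV-B the lines lay close together, at 1545 ± 40.9 in Mphy5 and 1339 ± 70.5 in wild type (SD, n = 3; log2 difference 0.21, limma adjusted p = 0.0056).

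Of the 13 genes of UV-B and light signalling that could be tested, 6 were called higher and 3 lower in Mphy5. That is 69.2% called, against 29.8% of all genes, and the median difference was 0.10 against -0.01 for all genes. Besides MpBZIP1, which differed most, the higher genes included MpCOP1, MpDET1 and MpRUP, whose Arabidopsis relatives repress light signalling in darkness or switch UVR8 off. MpCOP1 (Mp5g12010), the ubiquitin ligase, was at 10274, 10797 and 10439 in Mphy5 and at 5874, 6353 and 5680 in wild type. The groups did not overlap, and the difference was 0.82 (SE 0.05, limma adjusted p = 9.8e-11), or 1.76-fold. MpDET1 (Mp8g00970), whose Arabidopsis relative represses light responses in darkness, was at 15482, 15966 and 14605 in Mphy5 and at 9319, 9643 and 8439 in wild type. This difference was 0.75 (SE 0.05, limma adjusted p = 1.5e-09), again with no overlap.

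MpRUP (Mp2g18040), the regulator that switches UVR8 off, was at 13768, 14862 and 13078 in Mphy5 and at 11304, 12160 and 10597 in wild type. The lowest mutant library stood above the highest wild type library, but the difference was a modest 0.29 (SE 0.06, limma adjusted p = 0.00091). Without UV-B MpRUP, MpCOP1 and MpDET1 lay the other way. Their log2 differences were -0.81 for MpRUP (limma adjusted p = 3.9e-09), -0.20 for MpCOP1 (adjusted p = 0.0039) and -0.17 for MpDET1 (adjusted p = 0.024). The call of MpDET1 without UV-B was lost without Mphy5 replicate 2 or 3 or wild type replicate 1 or 2 of the libraries without UV-B, with adjusted p between 0.0525 and 0.129.

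The receptors differed little between the lines after UV-B. MpUVR8, the UV-B photoreceptor, was at 6575 ± 272 in Mphy5 and 6118 ± 138 in wild type (log2 difference 0.10, limma adjusted p = 0.11), and was not called. MpPHOT, the blue light receptor phototropin, was called higher by 0.15 (adjusted p = 0.033), and MpSPA1, a partner of COP1, by 0.15 (adjusted p = 0.044). Both calls were weak, and of the 23 alternative settings that of MpPHOT held in 18 and that of MpSPA1 in 14. Among the libraries after UV-B, the call of MpPHOT was lost without Mphy5 replicate 2 or 3 or wild type replicate 1 or 3 (adjusted p up to 0.134). That of MpSPA1 was lost without any 1 of the Mphy5 libraries or wild type replicate 1 or 3 (adjusted p up to 0.175). MpCRY, a cryptochrome, was lower by 0.15 (log2 difference -0.15, adjusted p = 0.0071). MpFHY1, which carries phytochrome into the nucleus in Arabidopsis, was also lower (log2 difference -0.23, adjusted p = 0.011), a call lost without wild type replicate 2 (adjusted p = 0.0519). MpPHY, the phytochrome, MpFKF, a blue light receptor of the clock, and MpDDB1, the partner of DET1, had log2 differences of -0.05, -0.06 and 0.03 and were not called.

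The third lower member had a larger difference. MpCRY-DASH (Mp1g25600), of the cryptochrome and photolyase family, was at 3276, 3243 and 3224 in Mphy5 and at 5683, 6277 and 5425 in wild type. It was 1.78-fold lower in the mutant (log2 difference -0.83, SE 0.07, limma adjusted p = 4e-08). The difference was about as large without UV-B, at -0.87 (adjusted p = 3.2e-08), with 677 ± 73.0 in Mphy5 and 1232 ± 83.3 in wild type (SD, n = 3).

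**Figure D2:**
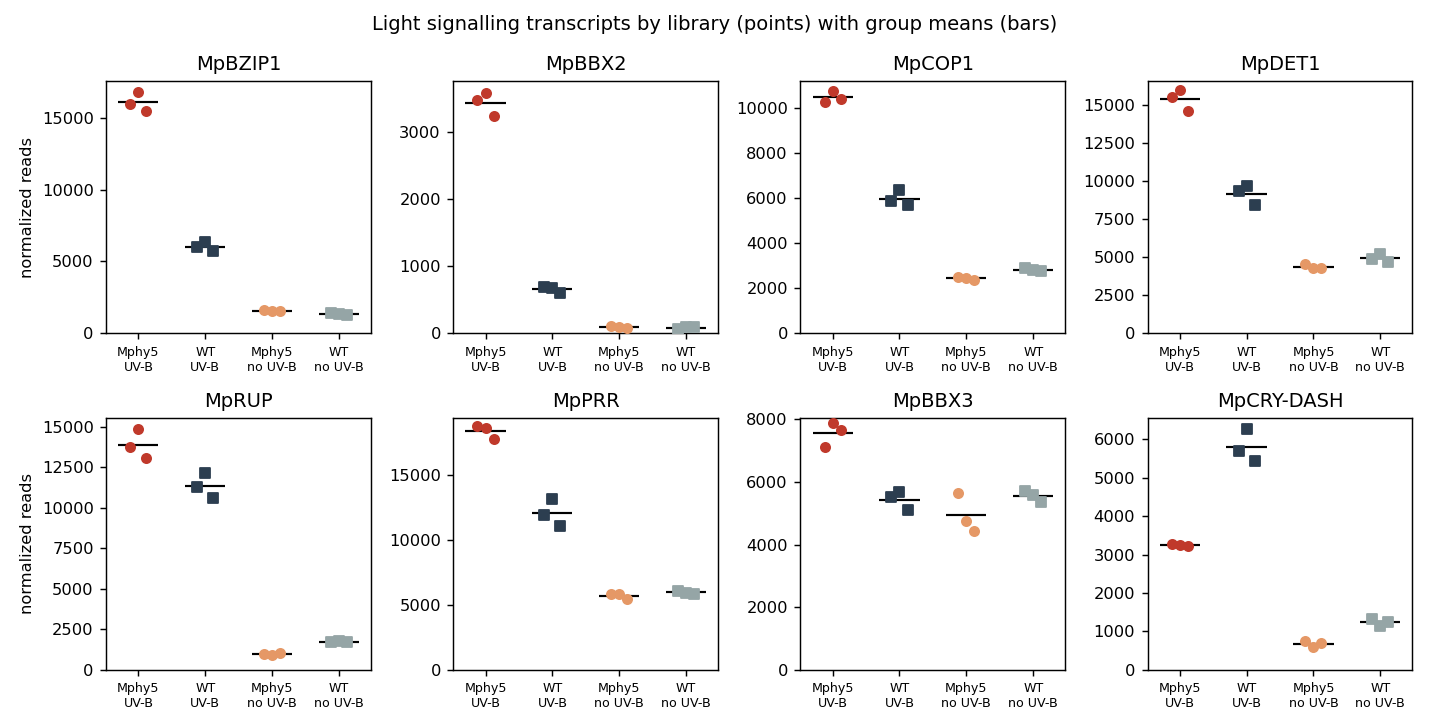
Normalized reads of 8 light signalling and clock genes in each library (points) with group means (bars), for Mphy5 and wild type after UV-B and without it. After UV-B the Mphy5 libraries lie above wild type for all but MpCRY-DASH, and MpBZIP1 and MpBBX2 show the widest gaps.

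B-box genes showed a second strong difference. Of the 6 B-box genes, 3 were called higher and 2 lower in Mphy5, or 83.3% called against 29.8% of all genes. Their median difference was 0.29. MpBBX2 (Mp3g20050) was at 3483, 3582 and 3236 in Mphy5 and at 693, 667 and 602 in wild type. All mutant libraries were several times above all wild type libraries, by 5.25-fold (log2 difference 2.39, SE 0.15, limma adjusted p = 3.1e-10). Without UV-B MpBBX2 was scarce in both lines, at 95.6 ± 15.2 in Mphy5 and 73.8 ± 17.0 in wild type, and was not called. MpBBX1 and MpBBX3 were higher by 0.57 (adjusted p = 1.4e-08) and 0.48 (adjusted p = 7e-05), and MpBBX6 was lower (log2 difference -0.61, adjusted p = 5e-05). MpBBX5 was called slightly lower (-0.12, adjusted p = 0.024), a call lost without Mphy5 replicate 1 or 3 or wild type replicate 1 or 2 (adjusted p up to 0.0804). MpBBX4, at 0.11, was not called, except without Mphy5 replicate 2 (adjusted p = 0.0252).

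Of 6 clock genes, 1 was higher, 1 was lower and 4 were not called, a share of 33.3% called that is near the 29.8% of all genes. MpPRR (Mp2g16560), a pseudo-response regulator, was at 18719, 18572 and 17763 in Mphy5 and at 11901, 13164 and 11080 in wild type. The groups did not overlap, and the difference was 0.61 (SE 0.05, limma adjusted p = 2.8e-08). Without UV-B its difference was -0.06 and was not called. MpTOC1, a clock component of the same family, was lower (log2 difference -0.26, adjusted p = 0.0018). MpGI, MpELF3 and MpELF4, further clock genes, had differences of 0.03, -0.14 and -0.10, and only MpELF3 was called in any alternative, without wild type replicate 3 (adjusted p = 0.00388).

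Genes at the entry of the phenylpropanoid pathway were called in both directions, more of them higher. Of 16 genes tested, 7 were called higher and 2 lower, or 56% called against 29.8% of all genes. The median difference was 0.30, and without Mphy5 replicate 2 the number of higher genes fell to 4. MpPAL8 (Mp4g10060), an ammonia-lyase, was at 7805, 7235 and 6866 in Mphy5 and at 5136, 5146 and 4272 in wild type. It was 1.51-fold higher (log2 difference 0.59, SE 0.07, limma adjusted p = 1.3e-05). MpPAL-like2 (Mp4g14160) was 2.68-fold higher, at 876 ± 72.0 in Mphy5 and 330 ± 66.4 in wild type (adjusted p = 1.8e-05), and MpPAL4 (Mp4g14210) 1.96-fold, at 251 ± 49.9 in Mphy5 and 129 ± 35.2 in wild type (adjusted p = 0.0053). MpC4H1, the hydroxylase that follows, was higher by 0.25 (adjusted p = 0.00076), while MpC4H2 and MpC4H3 were lower (-0.58, adjusted p = 0.0083, and -0.25, adjusted p = 0.018). The call of MpC4H3 was lost without Mphy5 replicate 3 (adjusted p = 0.0956) or wild type replicate 1 (adjusted p = 0.104). MpPAL1, the ammonia-lyase with the most reads of those named here, had values of 15008, 15647 and 13625 in Mphy5 and of 17703, 18817 and 14455 in wild type. Its groups overlapped, and the difference of -0.20 was not called (adjusted p = 0.12), although it was without wild type replicate 3 (adjusted p = 0.00154), with a replicate block (0.028) and by DESeq2 (0.0409). Without UV-B MpPAL1 was clearly lower in Mphy5, at 2452 ± 79.1 against 4828 ± 399 in wild type (log2 difference -0.97, adjusted p = 4.5e-06).

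The chalcone synthase family, enzymes that open flavonoid synthesis and their relatives, held 12 genes called higher and 1 called lower among the 26 tested of 28 in the table. That is 50% called, against 29.8% of all genes. The median difference was 0.66, and 9 of the 12 were at least 2-fold higher. Without UV-B the counts were much the same, 13 higher and 1 lower. MpPKS/CHS15 (Mp4g14200) was at 2087, 2750 and 2446 in Mphy5 and at 950, 829 and 894 in wild type. MpPKS/CHS14 (Mp4g14190), its neighbour by locus number, was at 2168, 2375 and 2288 in Mphy5 and at 1104, 1088 and 1027 in wild type. The lines were well apart for both, by 1.44 (SE 0.11, limma adjusted p = 6.9e-07) and 1.08 (SE 0.06, adjusted p = 4.9e-11). MpPKS/CHS13 (Mp4g14180) was higher by 2.47 (adjusted p = 0.014), MpPKS/CHS17 (Mp4g14450) by 2.48 (adjusted p = 3.4e-07) and MpPKS/CHS23 by 0.73 (adjusted p = 1.6e-06). MpPAL-like2, the 3 synthases numbered 13 to 15 and MpPAL4 carry locus numbers between Mp4g14160 and Mp4g14210, so they lie close together. Members of such families may share reads, which was not tested, and the sources do not say how reads with several matches were counted, so the value of each copy is uncertain.

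Other members of the family were not higher after UV-B. MpPKS/CHS2 (Mp2g07060) was at 58839, 62744 and 58648 in Mphy5 and at 59618, 64451 and 53414 in wild type. The groups overlapped and the difference was 0.03 (SE 0.06, limma adjusted p = 0.78). Without UV-B the same gene was lower in Mphy5, at 4309 ± 5.03 against 6499 ± 305 in wild type (log2 difference -0.59, adjusted p = 1.3e-07). MpPKS/CHS10, with a difference of -0.07 after UV-B (not called), lay the other way without UV-B (0.52, adjusted p = 0.00017). The single lower member, MpPKS/CHS19, was near the detection limit at 4.63 ± 2.39 in Mphy5 and 17.8 ± 4.53 in wild type (limma adjusted p = 0.021). Its call was lost without Mphy5 replicate 2 (adjusted p = 0.0889) or wild type replicate 3 (adjusted p = 0.0721). It was also lost with a pseudocount of 0.1 (adjusted p = 0.0536) and by edgeR (adjusted p = 0.0528).

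Enzymes later in flavonoid synthesis were called about as often as all genes, 35.7% of them against 29.8%. Of 28 tested, of 29 in the table, 3 were higher (against 13.8% of all genes) and 7 lower (against 16%), with a median difference of -0.07. The number of lower genes fell to 4 without Mphy5 replicate 1 or 3 or wild type replicate 2. MpCHIL2, a chalcone isomerase-like protein, was at 9205 ± 166 in Mphy5 and 10918 ± 434 in wild type (log2 difference -0.25, limma adjusted p = 0.00034). MpF3H, a flavanone 3-hydroxylase, was at 36085, 39106 and 36555 in Mphy5 and at 42132, 45089 and 38186 in wild type. These groups overlapped, and the call of MpF3H (log2 difference -0.16, adjusted p = 0.023) was lost without Mphy5 replicate 1 or 3 or wild type replicate 1 or 2 (adjusted p up to 0.149). MpDFR-like5 was 2.63-fold lower (adjusted p = 2.7e-08), and MpDFR-like13 and MpLAR-like5, related to reductases of the pathway, were lower by smaller amounts (-0.27, adjusted p = 0.0011, and -0.22, adjusted p = 0.0019).

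One reductase relative stood out in the other direction. MpDFR-like16 (Mp8g02830) was at 2124, 1888 and 2041 in Mphy5 and at 315, 257 and 266 in wild type, a 7.22-fold difference (log2 2.85, SE 0.11, limma adjusted p = 2e-13). It was as far apart without UV-B (2.60, adjusted p = 1.1e-12). The other higher members were MpDFR-like1 (0.38, adjusted p = 0.0039) and the isomerase relative MpCHIL1 (0.25, adjusted p = 0.013), whose call was lost without wild type replicate 2 (adjusted p = 0.0689). MpAUS, the aurone synthase that makes red cell wall pigment, was at 385, 260 and 216 in Mphy5 and at 485, 343 and 469 in wild type. The groups overlapped and the difference of -0.62 was not called (adjusted p = 0.15), although it was with the 2 groups fitted alone (adjusted p = 0.0486), by edgeR (0.0444) and by DESeq2 (0.0364).

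**Figure D3:**
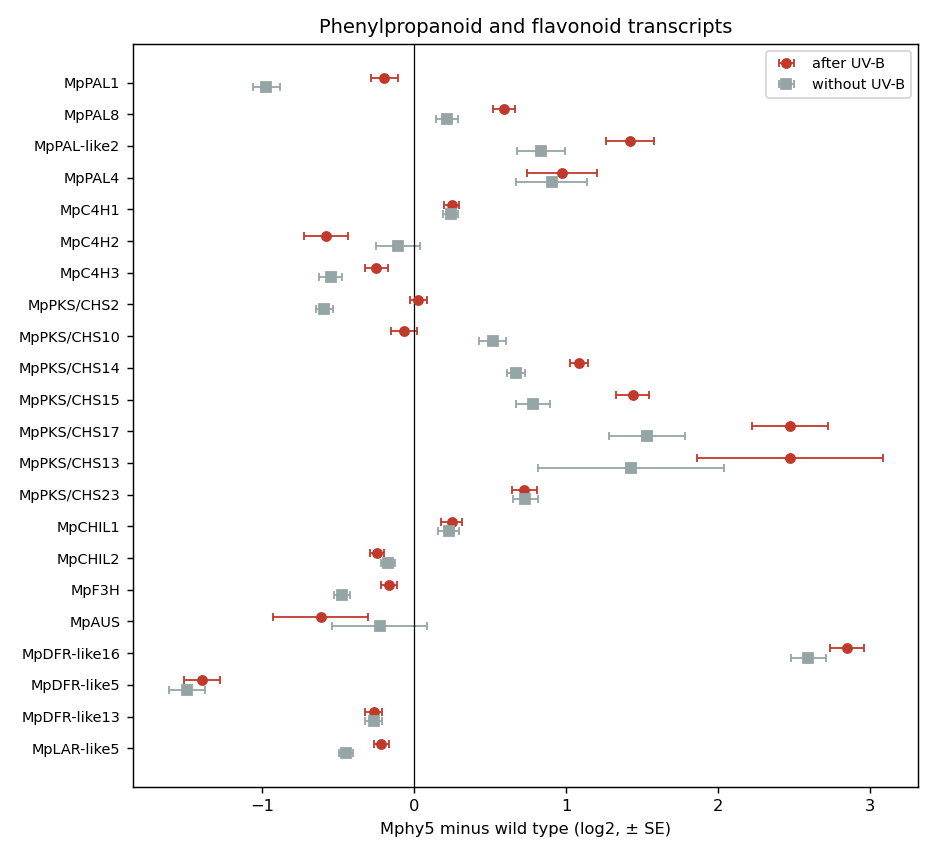
Difference between Mphy5 and wild type (log2, points with SE) after UV-B (circles) and without UV-B (squares) for 22 genes of the phenylpropanoid and flavonoid pathways. After UV-B, MpDFR-like16, MpPKS/CHS17 and MpPKS/CHS13 lie farthest to the right, while MpPKS/CHS2 lies at 0.03 after UV-B and -0.59 without it.

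Genes of histones, cyclins and DNA replication held the largest share of calls among the lists with more than 13 tested genes. Of 51 tested, of 53 in the table, 32 were higher and 3 lower in Mphy5 (68.6% called, against 29.8% of all genes), and 16 were not called. The differences were small, with a median of 0.26 and none as large as 2-fold. Without UV-B 14 were higher and 2 lower. These counts do not test a change with UV-B. The limma test of that change called 1 of the 51 more positive and 2 more negative, against 4.46% of all genes called. The D-type cyclins MpCYCD_2 and MpCYCD_1, which drive entry into the cell cycle, were at 1870 ± 228 and 3021 ± 117 in Mphy5 and at 1058 ± 83.6 and 1857 ± 87.3 in wild type. They were higher by 0.82 (limma adjusted p = 1.9e-07) and 0.70 (adjusted p = 4.4e-08), and the A-type cyclin MpCYCA by 0.56 (adjusted p = 1e-05). Subunits of the replicative helicase were higher, MpMCM2 by 0.51, MpMCM4 by 0.49 and MpMCM3 by 0.43 (adjusted p between 0.00049 and 0.0015). The replication-coupled histones MpH3.1b and MpH3.1e were higher by 0.66 (adjusted p = 0.00065) and 0.44 (adjusted p = 3.5e-05), and the mitotic kinase MpCDKB by 0.25 (adjusted p = 0.0056). The 3 lower genes were MpKRP, which inhibits cyclin-dependent kinases (-0.36, adjusted p = 2.4e-05), the histone MpH2B.1 (-0.62, adjusted p = 2.1e-09) and MpMCM (-0.31, adjusted p = 0.0065). The count of higher genes was 22 without Mphy5 replicate 3, and 22 to 33 over the 23 alternatives other than the 2-fold minimum. The summed level of the list was 143481 to 148621 in Mphy5 and 128492 to 141645 in wild type. Histone genes may also share reads, so the split between them is uncertain.

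Cell wall enzymes differed in both directions. Class III peroxidases, secreted enzymes that cross-link or loosen walls, were the largest family examined. Of the 146 tested (of 166 in the table), 48 were higher and 22 lower in Mphy5, or 47.9% called against 29.8% of all genes. The median difference was 0.31, and 32 were at least 2-fold higher and 8 at least 2-fold lower. MpPOD76 was at 309, 301 and 330 in Mphy5 and at 22.1, 23.4 and 24.0 in wild type, and MpPOD54 at 188, 272 and 262 in Mphy5 and at 27.9, 29.2 and 24.0 in wild type. The lines did not overlap in either, with 13.0-fold (log2 difference 3.70, limma adjusted p = 8.6e-08) and 8.52-fold differences (3.09, adjusted p = 1e-08). MpPOD73 was 18.4-fold higher (adjusted p = 0.00051). MpPOD89 was at 2003, 2134 and 1890 in Mphy5 and at 174, 137 and 617 in wild type, so wild type replicate 3 stood apart from the others of its group, and the difference was 8.16-fold (adjusted p = 0.0018). MpPOD49, MpPOD114, MpPOD126 and MpPOD55 were scarcer and 7.87-fold to 23.2-fold higher (adjusted p between 3.9e-06 and 2.2e-05). In the other direction MpPOD13 was 19.5-fold lower, at 14.7 ± 11.8 in Mphy5 and 269 ± 98.2 in wild type (adjusted p = 4.9e-07), and MpPOD144 2.21-fold lower (adjusted p = 6.2e-10). Without UV-B the log2 differences were 3.91 for MpPOD76, 2.23 for MpPOD54 and -4.69 for MpPOD13.

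Expansins, which loosen the wall during growth, had 6 genes called higher and 11 lower of 41 tested (of 46 in the table), or 41.5% called against 29.8% of all genes, and a median difference of 0.06. MpExpansin34 (Mp4g22180) was at 1847, 1683 and 1555 in Mphy5 and at 162, 122 and 203 in wild type. All mutant libraries lay above all wild type libraries, by 10.6-fold (log2 difference 3.41, SE 0.27, limma adjusted p = 1.8e-06), against 1.18 without UV-B (adjusted p = 0.0071). MpEXL5, an expansin-like gene, was higher by 0.52 (adjusted p = 1.6e-06). MpExpansin32, MpExpansin13 and MpExpansin6 were lower by 1.12, 0.89 and 0.62 (log2 differences -1.12, -0.89 and -0.62, adjusted p between 2.9e-10 and 1e-06).

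Polyphenol oxidases, copper enzymes that oxidise phenols, split evenly, with 9 higher and 10 lower of 43 tested (of 57 in the table). That is 44.2% called, against 29.8% of all genes. MpPPO20 was at 7458, 7818 and 7278 in Mphy5 and at 3792, 3555 and 3716 in wild type, and MpPPO37 at 4385, 4535 and 4178 in Mphy5 and at 12801, 11273 and 11876 in wild type. The first was 2.04-fold higher (limma adjusted p = 5.3e-11) and the second 2.74-fold lower (adjusted p = 9.8e-14), both without overlap. MpPPO10, at 122 ± 38.8 in Mphy5 and 757 ± 186 in wild type, was 6.25-fold lower (adjusted p = 1.3e-06), and the scarcer MpPPO32 3.44-fold higher (adjusted p = 9.1e-05). The cupins and dirigent proteins, which include oxalate oxidase relatives and guides of phenol coupling, had 21 higher and 22 lower of 107 tested (of 162; 40.2% called). MpCupin57 was at 938 ± 265 in Mphy5 and 4792 ± 542 in wild type (5.23-fold lower, adjusted p = 7.3e-06), and MpCupin85 was 5.70-fold lower (adjusted p = 0.00043).

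Enzymes of specialised metabolism, and genes named after them, gave several of the widest gaps. Of 108 cytochrome P450 genes tested (of 129), 21 were higher and 32 lower (49.1% called, against 29.8% of all genes). MpCYP704-like8 was at 1548, 1700 and 1732 in Mphy5 and at 32.5, 42.1 and 33.4 in wild type, a 45.1-fold difference (limma adjusted p = 7e-15), and it differed as much without UV-B (5.79 on the log2 scale). MpCYP829F4 was 5.52-fold higher (adjusted p = 1.5e-10), while MpCYP824A1 was 2.29-fold lower (adjusted p = 1.6e-11) and MpCYP704-like12 3.96-fold lower (adjusted p = 2.3e-10). Terpene synthesis genes had 5 higher and 6 lower of 25 tested (of 35), or 44% called. Without 1 library the higher genes numbered as few as 3 (without Mphy5 replicate 1 or wild type replicate 2 or 3).

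MpTPS6 was at 0, 0.81 and 1.19 in Mphy5, which is 0 or 1 read, and at 477, 644 and 795 in wild type. MpSQC2 was at 34.3, 47.0 and 27.5 in Mphy5 and at 1066, 923 and 643 in wild type, 23.6-fold lower (log2 difference -4.56, SE 0.22, limma adjusted p = 7.5e-12). Both genes were thus nearly silent or much reduced in every mutant library. MpMTPSL22, of the microbial-type terpene synthases, was at 2.40 ± 2.39 in Mphy5 and 98.3 ± 25.4 in wild type, and MpMTPSL2 was 2.11-fold lower (adjusted p = 1.8e-08). MpMTPSL-like was 2.08-fold higher (adjusted p = 7e-11).

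Among 33 tested 2-oxoglutarate dioxygenases (of 36), 5 were higher and 10 lower, or 45% called against 29.8% of all genes. MpDOXC15 was 4.43-fold higher (limma adjusted p = 5.8e-10), and MpDOXC28 and MpDOXC20 were lower (-1.45, adjusted p = 1.9e-08, and -0.90, adjusted p = 2.1e-07). UDP-glycosyltransferases, which attach sugars to small molecules, had 8 higher and 7 lower of 35 tested (of 38), or 42.9% called. Among them MpUGT22 was lower by 1.02 (log2 difference -1.02, adjusted p = 6.3e-08). Of 20 lipoxygenase and oxylipin genes 8 were higher and 3 lower (55% called), with a median of 0.35. MpLOX7 was higher by 1.43 (adjusted p = 2.6e-07), MpJAZ, a repressor of oxylipin signalling, was higher by 0.40 (adjusted p = 4.1e-05), and MpLOX14 was 2.18-fold lower, at 4282 ± 355 in Mphy5 and 9342 ± 1036 in wild type (adjusted p = 2.8e-06). ABC transporters had 19 higher and 21 lower of 93 tested (of 94), or 43.0% called. MpABCC6, with the smallest adjusted p of the higher ones, was higher by 0.65 (adjusted p = 6.5e-08).

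Of 34 auxin genes tested (of 37), 7 were called higher and 5 lower, a share of 35.3% near the 29.8% of all genes. The lower genes included carriers. MpAUX1 (Mp1g29330), an auxin importer, was at 3432, 3366 and 3437 in Mphy5 and at 6277, 6553 and 6121 in wild type. This 1.85-fold difference (log2 -0.89, SE 0.04, limma adjusted p = 9.9e-12) stood against -0.06 without UV-B, where it was not called. MpPIN1, an auxin exporter, was lower after UV-B (-0.34, adjusted p = 4.5e-06) and higher without it (0.27, adjusted p = 8.2e-05). MpPIN3, another PIN gene, was 2.06-fold higher (adjusted p = 0.00033). MpGH3B, of a family of amide synthetases that act on hormones, was 2.38-fold lower (adjusted p = 0.0017), and the auxin-responsive MpSAUR2 was lower by a smaller amount (-0.34, adjusted p = 0.00048).

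Transcription factor families differed in their share of calls, which was 29.8% over all genes. AP2/ERF and WRKY factors had 13 higher and 7 lower of 36 tested (of 44; 55.6% called), and the lower genes numbered 3 without wild type replicate 2. MpERF7 was at 1071 ± 38.2 in Mphy5 and 531 ± 37.4 in wild type (2.02-fold higher, limma adjusted p = 3.9e-08), MpERF17 was 2.26-fold higher (adjusted p = 1.4e-05), MpWRKY14 higher by 1.18 (adjusted p = 1.2e-05) and MpWRKY13 lower (-0.98, adjusted p = 1.4e-06). The bHLH family had 11 higher and 7 lower of 41 tested (of 50; 43.9% called), and 6 higher without Mphy5 replicate 2. MpBHLH39 was higher by 0.69 (adjusted p = 4.4e-09) and MpBHLH12 lower (-0.98, adjusted p = 6.8e-11). Of 46 MYB factors tested (of 60) 9 were higher and 5 lower, and this share of 30.4% is that of all genes. MpR2R3-MYB14, a regulator of auronidin pigment in Marchantia, was at 92.2, 84.2 and 93.2 in Mphy5 and at 29.1, 31.5 and 30.3 in wild type (2.90-fold, adjusted p = 0.0092). Of the 12 other bZIP genes 5 were higher and 1, MpBZIP15, was lower (-0.39, adjusted p = 7.3e-06), and the higher one with the smallest adjusted p was MpBZIP5 (0.56, adjusted p = 3.1e-07). Of 23 C2H2 zinc finger genes tested (of 25) 5 were higher and 3 lower, or 34.8%, near the share of all genes, and 2 were higher without wild type replicate 1.

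Lists of stress and organelle genes lay on both sides of the 29.8% called over all genes. Dehydrins and LEA proteins, which protect drying cells, had 4 higher and 8 lower of 66 tested (of 72; 18.2% called), and pentatricopeptide repeat proteins, which process organelle RNA, 5 higher and 10 lower of 73 tested (of 74). Antioxidant enzymes had 12 higher and 16 lower of 65 tested (of 67), or 43.1% called. MpDHAR1, a dehydroascorbate reductase, was lower, at 12442 ± 386 in Mphy5 and 17480 ± 879 in wild type (-0.49, limma adjusted p = 5.9e-08), and MpGST16 was lower by a larger amount (-1.13, adjusted p = 1.4e-07). Of 6 heat shock genes 3 were higher (50% called), MpHSP90-1 by 0.20 (adjusted p = 0.0019), MpHSP90-2 by 0.22 (adjusted p = 0.013) and MpHSP90-4 by 0.16 (adjusted p = 0.014). The call of MpHSP90-2 was lost without Mphy5 replicate 1 or wild type replicate 1 or 2 (adjusted p up to 0.0766), and that of MpHSP90-4 without Mphy5 replicate 1 (adjusted p = 0.054). Of 6 genes of photosystems, chlorophyll and carotenoids 1 was higher and 1 lower (33.3% called), and MpLCY-like1, the lower one, differed by -0.22 (adjusted p = 0.00093). Of 4 repair genes MpRAD54 was called (0.52, adjusted p = 0.019), and not without Mphy5 replicate 1 or 2 or wild type replicate 2 (adjusted p up to 0.0911). Of the 5 reference genes 4 were not called, and MpACT2 was higher by 0.27 (adjusted p = 0.00022).

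**Figure D4:**
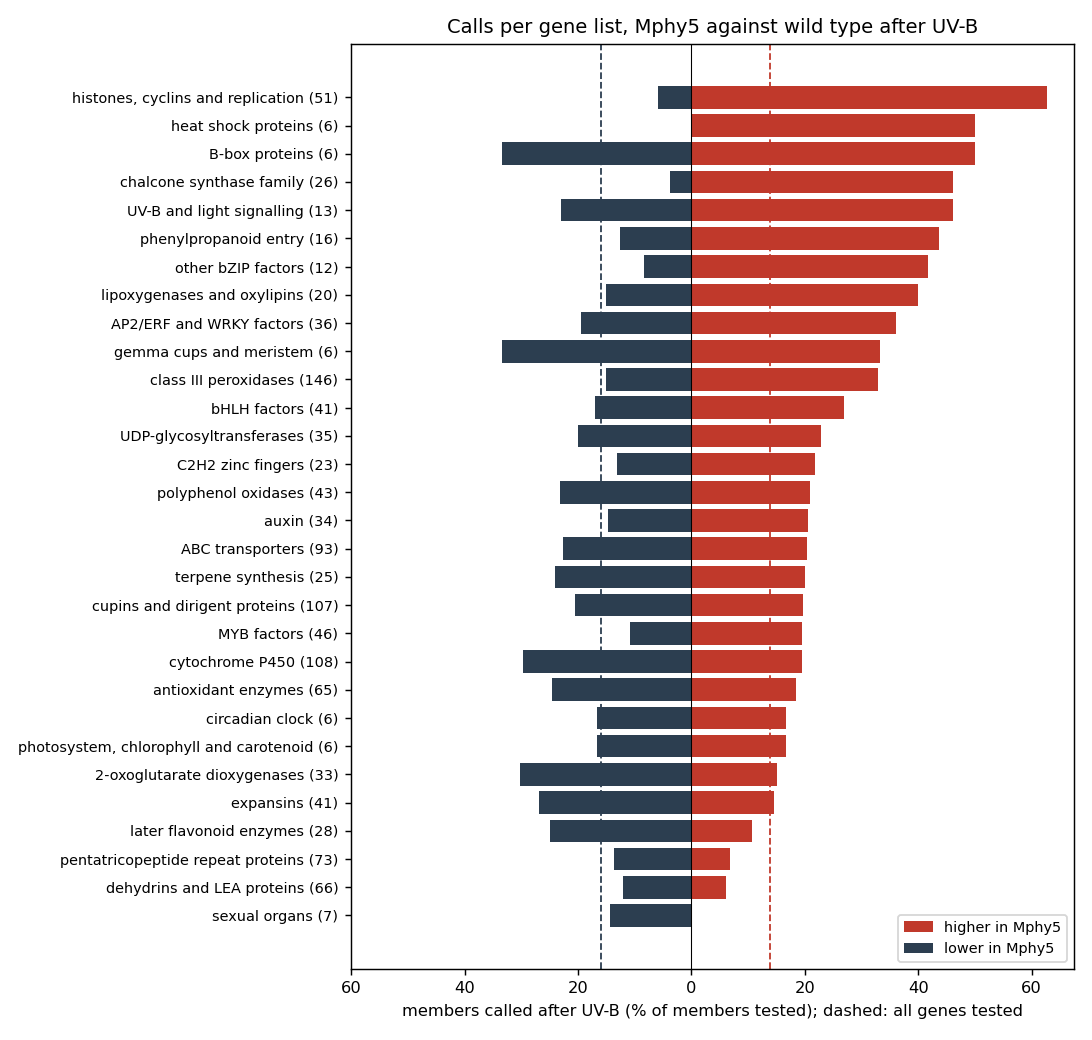
Share of the tested members of each gene list (number tested in brackets) called higher (red, to the right) or lower (blue, to the left) in Mphy5 after UV-B, for the 30 lists with 6 or more tested members. The dashed lines mark the shares over all 15999 genes, 13.8% higher and 16% lower, and the list of histones, cyclins and replication extends farthest to the right.

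Markers of particular cells and organs differed in both directions. Of 4 genes listed for oil body cells 3 were called higher (75% called, against 29.8% of all genes). The summed level was 8129 to 8401 in Mphy5 and 7187 to 7681 in wild type. MpSYP12B, the syntaxin that defines the oil body membrane, was 1.78-fold higher (limma adjusted p = 3.4e-05). MpSYP12A, of the plasma membrane, also counts in the list and its sum, and was not called (-0.05). The calls of MpC1HDZ and MpERF13, regulators of oil body formation, were each lost without 1 library (Mphy5 replicate 1 or wild type replicate 3 for MpC1HDZ, adjusted p up to 0.0576, and Mphy5 replicate 1 or 2 or wild type replicate 2 for MpERF13, adjusted p up to 0.0995). None of these 4 genes was at 0. Of 6 genes of gemma cups and the meristem 2 were higher and 2 lower (66.7% called). The summed level was 16219 to 16419 in Mphy5 and 18085 to 19508 in wild type. Here MpLOG, an enzyme of cytokinin activation, and MpCLV1, a receptor kinase of the meristem, were lower (-0.53, adjusted p = 1.4e-05, and -0.20, adjusted p = 0.0052), and MpKAR was higher (0.32, adjusted p = 0.00038). The call of MpGCAM1, the gemma cup regulator, higher by 1.15 at 74.1 ± 16.6 in Mphy5 and 38.2 ± 22.6 in wild type, was lost in 10 of the 23 alternatives, 8 of which left out 1 library (adjusted p up to 0.179, without wild type replicate 2). Genes of sexual organs summed to 6602 to 7069 in Mphy5 and 6653 to 7253 in wild type. Of 7 tested, 1 was called (14.3%), which was MpBELL3, at least 2-fold lower in Mphy5. This call was lost without Mphy5 replicate 1 or 3 or wild type replicate 1 or 3 (adjusted p up to 0.112). MpROP, the GTPase used as the rhizoid marker, was higher by 0.13 (adjusted p = 0.023), and not without Mphy5 replicate 1 or 3 or wild type replicate 2 (adjusted p up to 0.124). The part of these cell types in the other results was not tested.

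The largest differences between the lines came from genes that were nearly silent in one of them. Among the 12171 genes with a mean of at least 51.6 in 1 or both groups after UV-B, at least 8-fold differences were called for 47 higher and 50 lower genes, and all but 1 of the higher and all of the lower were called in the same direction without UV-B. Mp4g19930 was at 5246, 4872 and 5357 in Mphy5 and at 6.97, 0 and 4.18 in wild type. Mp7g06490 was at 1564, 1862 and 1577 in Mphy5 and at 1.16, 0 and 1.04 in wild type, and Mp4g19960 at 1285, 1378 and 1283 in Mphy5 and at 2.32, 0 and 2.09 in wild type. Each was thus abundant in every mutant library and within a few reads of 0 in every wild type library. MpASLBD1, of the LBD transcription factors, was at 224, 135 and 202 in Mphy5 and at 0 in all 6 wild type libraries of the study, and Mp1g22380 at 307, 172 and 213 in Mphy5 and likewise at 0 in wild type. Against a floor of 3 reads per library, averaged over the group, MpASLBD1 was at least 55.4-fold and Mp1g22380 at least 68.2-fold higher. MpPR6c, named as a pathogenesis-related gene, was at 475, 495 and 860 in Mphy5 and at 10.5, 0 and 15.7 in wild type, and MpNBS-LRR11, of the immune receptor class, was scarcer, at 55.2 ± 26.1 in Mphy5 and 3.83 ± 6.63 in wild type (adjusted p = 0.0013). MpGH19.3, a family member of the chitinases, was 7.12-fold higher (adjusted p = 0.0021).

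In the other direction 14 genes with a wild type mean of at least 10 after UV-B, all without symbols, were at 0 in all 6 Mphy5 libraries of the study, and the 4 highest in wild type are given here. Mp3g07970 was at 937, 1147 and 703 in wild type after UV-B, so it was at least 302-fold lower in Mphy5. Mp4g20540, at 821, 725 and 846 in wild type, was at least 259-fold lower, and Mp6g09290, at 708, 800 and 792, at least 249-fold lower. Mp1g03240, at 450, 505 and 437 in wild type, was at least 151-fold lower. Mp8g04890 was at 0, 4.86 and 1.19 in Mphy5 and at 1744, 2033 and 1652 in wild type, and Mp1g24365 at 5.36, 3.24 and 0 in Mphy5 and at 1374, 1401 and 1357 in wild type. These floors cover counting error only.

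Among genes with symbols, MpRLK-Pelle_WAK1, a receptor-like kinase that may bind the wall, was at 17.2, 14.6 and 14.3 in Mphy5 and at 658, 619 and 588 in wild type, 38.2-fold lower (limma adjusted p = 8.1e-05). MpOMT4, a methyltransferase, was 18.1-fold lower (adjusted p = 7.2e-07), MpGT37.3, a glycosyltransferase, 6.17-fold (adjusted p = 7.9e-06) and MpGH19.7, of the chitinase family, 5.82-fold, at 553 ± 60.9 in Mphy5 and 3224 ± 379 in wild type (adjusted p = 1.3e-10). MpPR1, pathogenesis-related by name, was 3.72-fold lower (adjusted p = 0.0016), MpHA12, a proton pump, 3.71-fold (adjusted p = 0.0034) and MpBK1 3.64-fold (adjusted p = 3.4e-05).

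**Figure D5:**
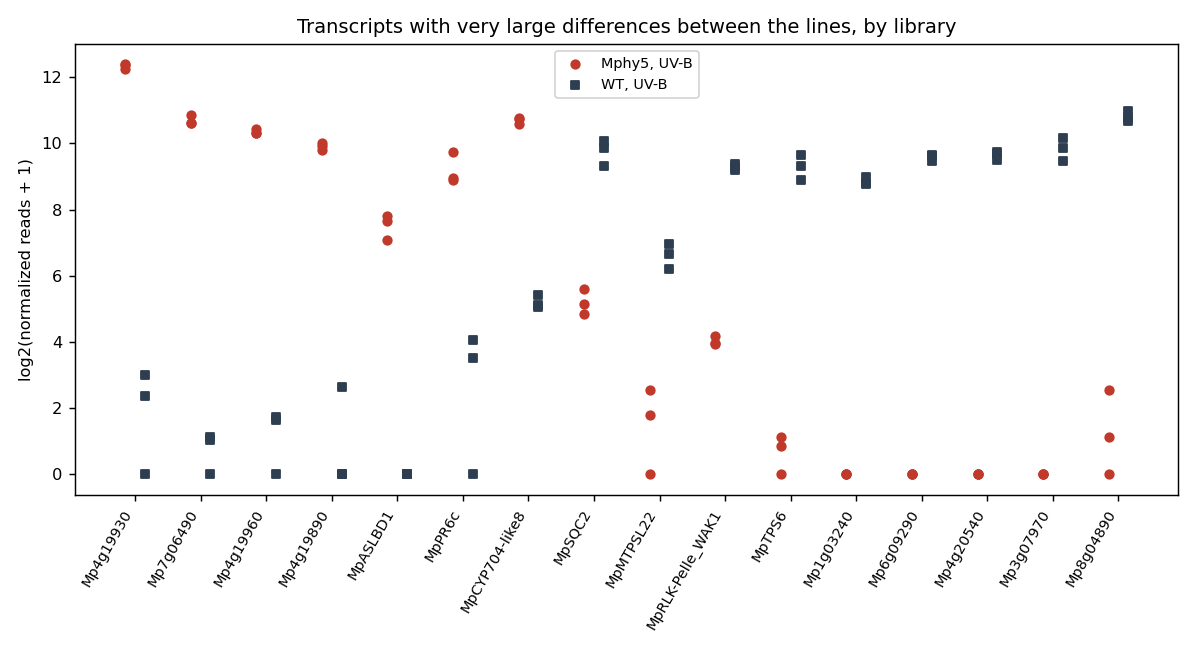
Levels of 16 genes with very large differences in each library after UV-B, as log2(normalized reads + 1), with Mphy5 left (circles) and wild type right (squares) for each gene. The genes on the left lie high in all 3 Mphy5 libraries and near 0 or low in wild type, and those on the right the reverse.

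Some of these strongly different genes lay next to each other. Of the 47 genes at least 8-fold higher, 13 (27.7%) had another such gene within 5 places in the order of locus numbers, against 2.33% of all 12171 genes at that level. Of the 50 genes at least 8-fold lower, 10 (20%) had one, against 2.82%. The longest run was on chromosome 4, where Mp4g19890, Mp4g19930, Mp4g19940, Mp4g19950 and Mp4g19960 were all higher in Mphy5. Mp4g19940 was at 168 ± 33.2 in Mphy5 and 2.51 ± 2.62 in wild type, Mp4g19950 at 1151 ± 99.8 in Mphy5 and 12.2 ± 9.67 in wild type, and Mp4g19890 at 967 ± 79.6 in Mphy5 and 1.74 ± 3.01 in wild type. Mp4g19920, inside the run, went the other way, at 0 in the 3 Mphy5 libraries and 16.8 ± 2.51 in wild type. Mp4g19900, also inside it, overlapped between the lines and was not called (log2 difference 0.41, limma adjusted p = 0.31). On chromosome 1 Mp1g22380, Mp1g22390 (181 ± 13.0 in Mphy5 and 11.5 ± 4.89 in wild type) and Mp1g22410 (149 ± 41.9 in Mphy5 and 4.07 ± 1.54 in wild type) were higher together. On chromosome 7 Mp7g06470, beside Mp7g06490, was at 23544, 26224 and 22207 in Mphy5 and at 2400, 2178 and 2076 in wild type, 10.8-fold higher (limma adjusted p = 1.6e-18). On the V chromosome 1 of 50 genes tested was higher and 7 were lower (16% called, against 29.8% of all genes). There MpVg00700 was at 0, 0.81 and 0 in Mphy5 and at 507, 416 and 408 in wild type.

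How far UV-B changed the difference between the lines was tested directly, as the difference after UV-B minus that without it. This test called 714 of the 15999 genes (4.46%), 308 with a more positive difference after UV-B (1.93%) and 406 with a more negative one (2.54%). In Mphy5 relative to wild type, the largest gains among the signalling genes were those of MpBBX2 (2.01, SE 0.22, limma adjusted p = 1e-05), MpBZIP1 (1.21, SE 0.07, adjusted p = 1.1e-08), MpRUP (1.11, SE 0.09, adjusted p = 1.9e-07), MpCOP1 (1.02, SE 0.07, adjusted p = 3.5e-08) and MpDET1 (0.92, SE 0.08, adjusted p = 3.4e-07). In the flavonoid pathway MpPKS/CHS2 gained 0.62 (adjusted p = 7.3e-05) and MpPAL1 0.78 (adjusted p = 0.0032), and both were called lower in Mphy5 without UV-B and not called after it. MpSQC2 (-1.72, adjusted p = 0.0023) and MpAUX1 (-0.83, adjusted p = 1.9e-07) had more negative differences after UV-B. Since this test uses the same libraries as the 2 comparisons of the lines, it is given beside them and adds no separate evidence.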

How the data were processed

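Total RNA of gemmalings was sequenced as 100-base single reads (Illumina TruSeq, NovaSeq), per the labels' protocols. The submitters' processing notes name STAR 2.7.4. Build, annotation, counting and strand setting were not given in the sources used here. Per gene and library, the authors deposited a normalized signal, which from its values is reads divided by 1 size factor per library. After division by that factor 100% of the low values were whole reads (tolerance 0.02 reads) in all 12 libraries, so reads could be recovered.

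A gene entered if 3 or more of the 12 libraries had a value of 1 or more (15999 of 18255). limma 3.58.1 (R 4.3.3) was fitted to log2(value + 1) with 4 group means, 8 residual degrees of freedom, and trended, robust empirical Bayes moderation. p-values were Benjamini-Hochberg adjusted over all genes, with a threshold of 0.05. Alternatives were pseudocounts of 0.1 and 5, no filter or one at 5, rescaling by TMM or by median ratios, fitting the 2 groups alone, a replicate block, limma without trend and robust options, each library left out, a 2-fold minimum, and edgeR 4.0.16 (quasi-likelihood) and DESeq2 1.42.0 on recovered reads. The fits were also run on simulated data in which few genes changed and none of those was scarce. That setting differs from these data, so the run does not show error rates here. A fold of a gene at 0 in a whole line is a lower bound from a floor of 3 reads per library.

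Gene symbols and gene order, and no coordinates, were taken from RefSeq's table for the assembly MpTak2_v7.1. Of the 18255 identifiers, 18082 matched and 3110 had a symbol. The 34 gene lists were drawn up by symbol, and the members and lists were chosen with earlier results of these data known. Genes were named by rule: up to 15 higher and 15 lower with a symbol and 4 each without one, by size, with a higher-group mean of at least 51.6 and no overlap between groups; up to 4 per list by adjusted p; up to 4 at 0 in a whole line; and MpBZIP1. The other 44 named genes were chosen after their values were seen, among them MpRUP, MpUVR8, MpPAL1, MpPKS/CHS2, MpF3H, MpAUS, MpKRP, the MCM genes, MpGH3B and the members of the gene runs. Other computing used pandas 2.3.3 and numpy 2.4.6 in Python 3.11.15, with matplotlib 3.10.9 for plots.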

Additional observations from a re-analysis of the deposited data

Results flagged for a closer look

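The difference between Mphy5 and wild type was not the same after UV-B as without it for 714 of 15999 genes, by the limma interaction test. Of the genes named here, 59 were among them, and each value below is the log2 difference after UV-B minus that without UV-B. The difference was more positive after UV-B for 34 of them: MpExpansin34 (2.23), MpBBX2 (2.01), MpBZIP1 (1.21), MpRUP (1.11), MpCOP1 (1.02), MpDET1 (0.92), MpPPO20 (0.85), MpPAL1 (0.78), MpDOXC20 (0.67), MpPRR (0.67), MpPKS/CHS15 (0.65), MpBBX3 (0.65), MpPKS/CHS2 (0.62), MpERF7 (0.60), MpPPR_73 (0.57), MpABCC6 (0.56), MpC2H2-9 (0.55), MpBHLH39 (0.49), MpEXL5 (0.47), MpBZIP5 (0.45), MpDHAR1 (0.44), MpCYCD_1 (0.43), MpABCF1 (0.42), MpPKS/CHS14 (0.41), MpPAL8 (0.38), MpPPR_67 (0.37), Mp1R-MYB11 (0.36), MpMTPSL-like (0.32), MpAP2B3-2 (0.31), MpF3H (0.31), MpC2H2-14 (0.30), MpBBX1 (0.29), MpHSP90-4 (0.29) and MpRR-MYB2 (0.22).

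The difference was more negative after UV-B for 25: MpSQC2 (-1.72), MpLEA-like33 (-0.96), MpDOXC15 (-0.93), MpGH19.7 (-0.89), Mp7g06470 (-0.86), MpDOXC28 (-0.86), MpAUX1 (-0.83), MpCYP824A1 (-0.76), MpLOX14 (-0.73), MpExpansin32 (-0.73), MpPIN1 (-0.62), MpPPO37 (-0.60), MpPKS/CHS10 (-0.58), MpBHLH15 (-0.56), MpBHLH3 (-0.55), MpPOD144 (-0.54), MpLEA-like3 (-0.51), MpDIR25 (-0.48), MpBHLH12 (-0.44), MpKRP (-0.43), MpCLV1 (-0.41), MpLOG (-0.40), MpBZIP15 (-0.35), MpH2B.1 (-0.31) and MpBBX5 (-0.24). Of the 59 genes, 38 were called in this test under every alternative and 11 lost the call without 1 library. Those 11 were MpLOG, MpRR-MYB2, Mp1R-MYB11, MpC2H2-14, MpPAL8, MpPKS/CHS15, MpAP2B3-2, MpMTPSL-like, MpLEA-like33, MpF3H and MpBBX5, with adjusted p of at most 0.137 when lost.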

How the results depend on the processing

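The count of 4766 genes after UV-B stayed between 3774 (without wild type replicate 1) and 4901 when each of the 12 libraries was left out, and between 4125 and 4897 under the other pseudocounts, filters, scalings, fits and tools. A 2-fold minimum left 957. The counts without UV-B ran between 3041 and 4233 with 1 library left out, against 3986. The 714 genes of the interaction test became 332 in limma without trend and robust options, 802 by edgeR, 1005 by DESeq2, and 482 to 729 with 1 library left out. Without Mphy5 replicate 1 of the libraries without UV-B, the balance of 308 higher and 406 lower turned to 386 higher and 343 lower. The cause of the lower count was not tested. Of the 4766 genes, 3055 (64.1%) were called in the same direction in each of the 23 alternatives other than the 2-fold minimum, 4584 (96.2%) by edgeR and 4663 (97.8%) by DESeq2. Of the 206 named genes, 182 were called, and 17 of those lost the call in 1 or more of these 23. In 1 or more of them 6 others gained a call, and 0 changed direction. A replicate block gave 4835 genes after UV-B, 4108 without UV-B and 779 in the interaction test. Same-numbered libraries after UV-B deviated from their group means with correlations of -0.01, -0.01 and 0.01, so the numbers gave no sign of pairing there. Without UV-B the correlations were 0.02, 0.02 and 0.03 for same-numbered libraries. Differently numbered libraries without UV-B had correlations between -0.019 and -0.002. Whether this small gap reflects pairing was not tested. With 3 libraries a group, and a floor of 2.34 to 3.58 normalized reads for 3 reads, differences of scarce genes were the least certain.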
